A study of Mus musculus with 8 samples.

Results

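Heat shock proteins and chaperones were examined in mouse T cells recovered from xenografts. The members are 10 genes chosen by name: Hspa8, Hspa5, Hspa1a, Hspa1b, Hsp90aa1, Hsp90ab1, Hspb1, Hspd1, Hspe1 and Dnaja1. A gene counted as measured where the array annotation held a probe set, the group of probes that reads 1 transcript, with that gene as its only symbol. This held for 7 of the 10 genes, with 16 probe sets, among 18820 genes and 21218 such probe sets on the array. Hspa1a and Hspa1b, the stress-inducible Hsp70 genes, appear together on 3 probe sets, which cannot be assigned to either gene, and neither has a probe set of its own. Hsp90ab1, the constitutive cytosolic Hsp90, has no probe set under that symbol in the array annotation, alone or shared with another gene. These 3 genes were not analysed here.

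The samples were CD3+ T cells taken at day 30 from tissues derived from human embryonic stem cells and grafted into wild-type CD1 mice, an outbred strain. In the rejecting group, 4 samples, the hosts were untreated. In the tolerant group, 4 samples, the hosts had been injected, in the labels' terms, with anti-CD4, anti CD8 and CD40L. Nothing in the labels says that each sample came from a separate animal or whether animals were pooled, so the p-values measure the spread between these samples only, which may be technical. Values are log2 RMA values (RMA is a background correction, normalization and summary of the probes of a set), and differences are tolerant minus rejecting.

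Chaperones bind unfolded or partly folded proteins and keep them from aggregating. Hsp70 proteins cycle on and off their clients with ATP, J-domain proteins such as Dnaja1 bring clients to Hsp70 and start the cycle, and Hsp90 finishes the folding of kinases and receptors. In T cells, Hsp90 clients include the kinase Lck, and activated T cells are known to raise chaperone expression as protein synthesis increases. Under heat or oxidative stress, heat shock factor 1 binds heat shock elements, inverted repeats of GAA, and raises the cytosolic and mitochondrial chaperones. Unfolded protein in the endoplasmic reticulum acts instead through ATF6 and XBP1 on the ER stress element, which controls Hspa5.

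Of the 10 genes, 7 had a promoter window in the RefSeq set for build GRCm38.p6: Hspa5, Hspa1a, Hspa1b, Hspb1, Hspd1, Hspe1 and Dnaja1. Hspa8, Hsp90aa1 and Hsp90ab1 did not. The 250 bases before each start site were searched on both strands. The letters GAANNTTC or TTCNNGAA, 2 units of a heat shock element, were found in 6 of the 10 windows of these genes, against 12.8% of all 32851 windows. Each of the 6 belonged to another gene, with 1 of the 2 Hspd1 windows and 1 of the 3 Dnaja1 windows among them. The Hspa1a and Hspa1b matches stood at the same positions, -104 to -97 from their start sites. Each of these patterns is its own reverse complement, and they overlap where 3 or more units follow each other. A run of at least 3 units stood in 0.466% of all windows, and of these genes in those of Hspe1 and Hspd1, where 2 overlapping runs make 4 units in a row. The next sequences show these stretches, with the matching letters in capitals. Hspe1 and Hspd1 are divergent neighbours, and their lines are the 2 strands of the same 30 bases, at chr1:55088053-55088082, which span positions -95 to -66 from the Hspe1 start site and -150 to -121 from the Hspd1 start site. The Hspb1 stretch, chr5:135887801-135887830 on the plus strand, holds 2 separate pairs, and the Dnaja1 stretch, chr4:40722333-40722362 on the plus strand, holds 1.
Hspe1: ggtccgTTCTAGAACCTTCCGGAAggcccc
Hspd1: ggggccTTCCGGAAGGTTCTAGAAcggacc
Hspb1: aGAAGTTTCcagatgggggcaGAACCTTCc
Dnaja1: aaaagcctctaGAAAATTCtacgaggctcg

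Hspa5 was the gene without those letters and the only member with the ER stress element, CCAAT and CCACG with 9 bases between them, which was found in 0.113% of all windows. Its whole upstream window, chr2:34771840-34772089 on the plus strand, is shown because Hspa5 had the smallest p of the members between the groups over all 8 arrays and on arrays 3 and 4, though not on arrays 1 and 2. The capitals mark the element, at positions -65 to -47 from the start site. A match describes the letters only.
Hspa5: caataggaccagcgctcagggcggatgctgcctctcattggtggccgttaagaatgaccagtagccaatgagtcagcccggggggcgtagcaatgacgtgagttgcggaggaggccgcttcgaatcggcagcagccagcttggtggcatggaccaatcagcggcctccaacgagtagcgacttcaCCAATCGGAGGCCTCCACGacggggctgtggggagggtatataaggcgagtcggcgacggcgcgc

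The arrays fell into 2 sets that cut across the groups. On the 4 arrays numbered 1 and 2, between 2.52% and 5.57% of genes lay above the background line of the array, and on the 4 numbered 3 and 4 between 9.12% and 16.3%. That line is the level that 99% of 1182 olfactory and vomeronasal receptor probe sets, taken here as not expressed, did not exceed, and lay between 0.99 and 1.35. Cd3e, of the T cell receptor complex, lay above it on 5 arrays, Cd5, a surface receptor of T cells, on 5, Cd3g on 2, Cd2 on 1, and Cd3d and Cd247 on 0, so the T cell label was borne out in part. The comparisons are therefore given over all 8 arrays and in each set of 4.

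No chaperone passed the limma test between tolerant and rejecting T cells over all 8 arrays, and no member lay above background on any array numbered 1 or 2. All 16 probe sets had an adjusted p of 1.00 (limma, Benjamini-Hochberg over all 21218 probe sets), 0 had an unadjusted p under 0.05, and 0 had groups that did not overlap. Over all probe sets, 0 passed (percent called 0), 2.89% had an unadjusted p under 0.05, and 2.22% did not overlap, 1.09% with tolerant samples higher and 1.13% with them lower. The median difference of the 7 genes was 0.13, with 5 above 0, and that of all genes was 0.00054. The 95% intervals were wide. For Hspa8 the interval ran from -1.98 to 2.60, and for Hspb1, the narrowest but for Hspe1, from -0.19 to 0.39.

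**Figure D1:**
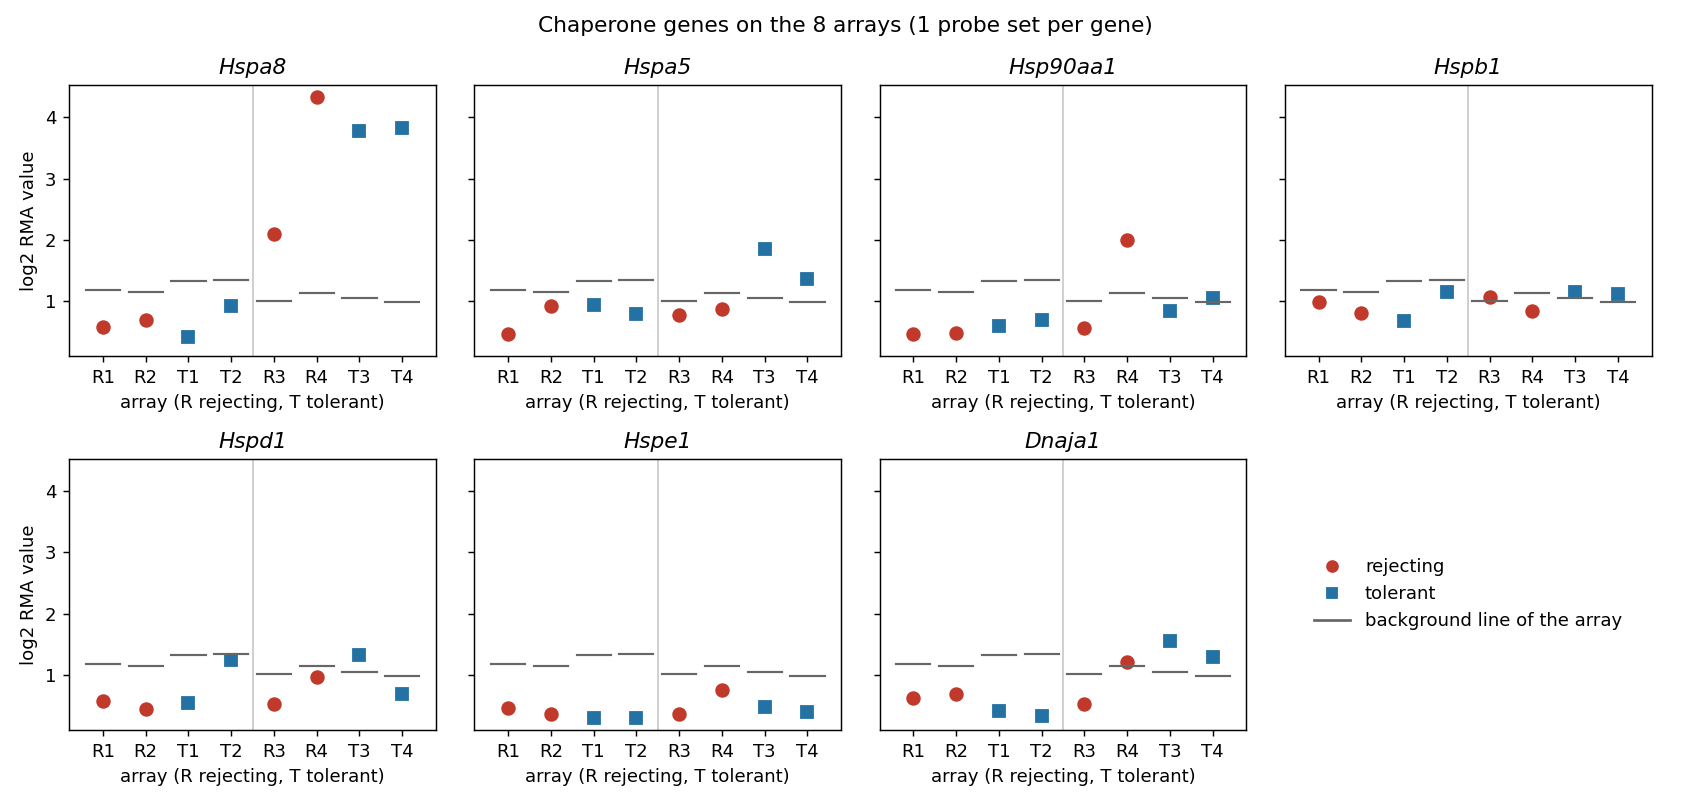
Log2 RMA value (vertical axis) of the 7 measured chaperone genes, 1 probe set each, on the 8 arrays (horizontal axis: R rejecting, T tolerant, with the array number). Circles are rejecting samples, squares tolerant samples, and short grey lines the background line of each array. Hspa8 lies above its line on the 4 arrays numbered 3 and 4 and on 0 of the others, and Hspe1 lies below it on all 8.

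Hspa8 encodes Hsc70, the constitutive cytosolic Hsp70, which also strips clathrin from vesicles and carries clients into the lysosome. It was the only member above background on all 4 arrays numbered 3 and 4, and it was so with each of its 3 probe sets. The probe set with the highest mean, 10528021, gave 2.10 (array 3) and 4.33 (array 4) for the rejecting group and 3.77 and 3.82 for the tolerant group. The tolerant pair therefore lay within the range of the rejecting pair. On the arrays numbered 1 and 2 it stood at 0.58 and 0.69 in the rejecting pair and at 0.42 and 0.92 in the tolerant pair, all under the line. The difference on arrays 3 and 4 was 0.58 (SE 0.68, limma adjusted p = 0.858). On arrays 1 and 2 it was 0.04 ± 0.19 (SE).

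The other Hspa8 probe sets also had rejecting array 3 as the lowest of the arrays numbered 3 and 4. Probe set 10368025 gave 1.55 and 4.29 for the rejecting pair, and 3.63 and 3.65 for the tolerant pair. Probe set 10584572 read 1.35 and 2.35 against 2.40 and 2.45. Only in this last probe set did the groups not overlap, the nearest samples being at 2.35 and 2.40. Its difference of 0.58 had a standard error of 0.32 (limma adjusted p = 0.738). On arrays 1 and 2, all under the line, the differences of these probe sets had opposite signs, 0.32 for 10368025 and -0.40 for 10584572. Over the 8 arrays the first probe set correlated with the others by 0.988 and 0.965, as a description across arrays that share 2 levels of signal. Another 2 probe sets carry Hspa8 together with the small nucleolar RNA genes of its introns and were left out.

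The size of the Hspa8 difference turned on 1 rejecting array. Without rejecting array 4, the difference on the remaining arrays 3 and 4 was 1.70 for probe set 10528021 and 2.09 for 10368025. Without rejecting array 3 the same differences were -0.53 and -0.65. The remaining Hspa8 probe set, 10584572, gave 1.07 without rejecting array 4 and 0.078 without rejecting array 3, so its sign did not turn. Each of these fits has a lone rejecting sample, so only the sizes are given. With all 4 arrays, neither direction was shown.

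**Figure D2:**
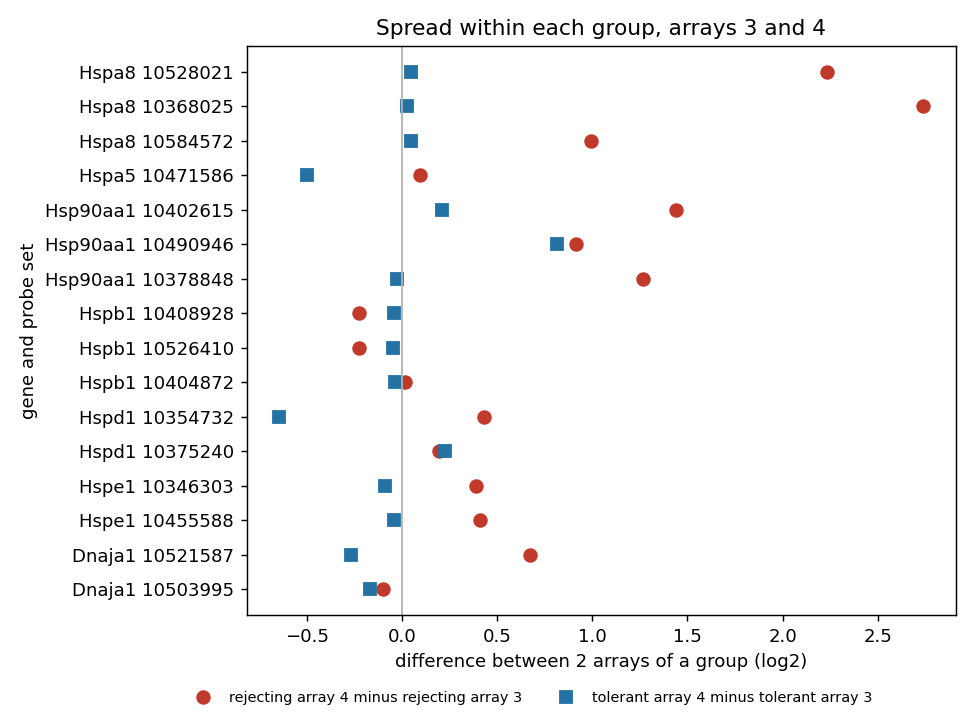
Difference in log2 RMA value between the 2 arrays of a group numbered 4 and 3 (horizontal axis) for each of the 16 chaperone probe sets (vertical axis). Circles are the rejecting pair and squares the tolerant pair; the 3 Hspa8 circles lie at 2.23, 2.74 and 1.00, and the Hspa8 squares between 0.03 and 0.05.

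Within the rejecting group, array 4 read higher than array 3 for 6 of the 7 genes, Hspb1 being the exception, with a median gap of 0.43. For Hspa8 the gap was 2.23 and for Hsp90aa1 it was 1.44. Among the 1227 genes above background on all 4 arrays, the median gap was 0.03, with quartiles of -0.19 and 0.27, and 0.652% had a gap above 2. Of the 7 members only Hspa8 met that filter. It removes genes under the line on rejecting array 3, so these genes are not matched in level to the other members. In the tolerant group the array numbered 4 was higher for 2 of the 7 genes, with a median gap of -0.09, where the 1227 genes had a median of -0.14 and quartiles of -0.36 and 0.06. Rejecting array 4 had fewer genes above background than rejecting array 3, 9.12% against 14.3%, with its own line at 1.14 against 1.01. The part of array signal in these gaps was not tested.

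The genes whose values followed those of Hspa8 most closely over the 8 arrays were Cycs (cytochrome c), with a Pearson r of 0.998, Gm12070, a predicted gene, with 0.987, the ribosomal protein genes Rpl10 and Rpl12 with 0.986 and 0.984, and Capzb, an actin-capping protein, with 0.982. These are descriptions over 8 arrays that fall into 2 levels, and 222 of 18819 genes had an r above 0.9. Cycs had the same low value on rejecting array 3, reading 1.47 and 3.08 in the rejecting pair and 2.91 and 2.69 in the tolerant pair on arrays 3 and 4.

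Hspa5 encodes BiP, the Hsp70 of the endoplasmic reticulum and the sensor partner of the unfolded protein response. On arrays 3 and 4 it stood at 0.78 and 0.88 in the rejecting pair, both under the line, and at 1.85 and 1.36 in the tolerant pair, both above it. The groups did not overlap. The difference was 0.78 ± 0.18 (SE), and its 95% interval ran from 0.32 to 1.24. It had an unadjusted p of 0.00664, rank 346 of 21218, and a limma adjusted p = 0.407, so it did not pass. Without rejecting array 4 it was 0.83 and without rejecting array 3 it was 0.73. Since the rejecting values lay at background, this size is uncertain. On arrays 1 and 2 it stood at 0.47 and 0.92 in the rejecting pair and at 0.93 and 0.80 in the tolerant pair, all under the line, and the groups overlapped. The test of whether the difference itself differed between the sets of arrays gave 0.61 (SE 0.28, limma adjusted p = 0.716).

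Dnaja1, the J-domain partner of cytosolic Hsp70, showed the same order on arrays 3 and 4 as Hspa5. Probe set 10521587 stood at 0.53 and 1.21 in the rejecting pair and at 1.56 and 1.29 in the tolerant pair, and 3 of the 4 values lay above the line. The tolerant samples were both higher, the nearest values being 1.21 and 1.29. The difference was 0.56 (SE 0.24, limma adjusted p = 0.70). Without rejecting array 4 it was 0.90, and without rejecting array 3 it was 0.22. Neither passed.

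On arrays 1 and 2 the order of Dnaja1 was turned, with 0.63 and 0.69 in the rejecting pair and 0.41 and 0.32 in the tolerant pair, all under the line. The sets of arrays differed by 0.85 ± 0.29 (SE), which did not pass (unadjusted p of 0.0178, limma adjusted p = 0.644). The other Dnaja1 probe set, 10503995, lay under the line on all 8 arrays. It stood at 0.35 and 0.25 in the rejecting pair and at 0.79 and 0.63 in the tolerant pair on arrays 3 and 4, a difference of 0.41 (unadjusted p of 0.0148, limma adjusted p = 0.540). A further probe set shares Dnaja1 with Mir207 and was left out.

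Hsp90aa1, the inducible cytosolic Hsp90, was set apart by rejecting array 4. Probe set 10402615 gave 0.46, 0.48, 0.56 and 2.00 for the rejecting samples, in array order, and 0.60, 0.69, 0.84 and 1.05 for the tolerant ones. Only rejecting array 4 and tolerant array 4 lay above the line. Without rejecting array 4 the difference on arrays 3 and 4 was 0.39, and with all 4 it was -0.33 (SE 0.45, limma adjusted p = 0.876). Probe set 10378848 showed the same high array, with 0.37 and 1.63 in the rejecting pair and 0.73 and 0.71 in the tolerant pair. In probe set 10490946 the array numbered 4 was high in both groups, with 0.45 and 1.37 in the rejecting pair and 0.65 and 1.46 in the tolerant pair, and the difference was 0.15. The Hsp90aa1 probe sets thus gave differences of both signs.

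The mitochondrial pair Hspd1 and Hspe1, which encode Hsp60 and its lid Hsp10, stayed near or under background. Hspd1 (10354732) stood at 0.53 and 0.96 in the rejecting pair and at 1.33 and 0.68 in the tolerant pair on arrays 3 and 4, and only tolerant array 3 lay above the line. The difference was 0.26 (SE 0.26, limma adjusted p = 0.837). Its other probe set, 10375240, lay under the line on all 8 arrays. That probe set gave -0.26, with 0.58 and 0.77 in the rejecting pair and 0.30 and 0.52 in the tolerant pair. The Hspd1 probe sets correlated by -0.40 over the 8 arrays.

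Hspe1 (10346303) stood at 0.37 and 0.76 in the rejecting pair and at 0.48 and 0.39 in the tolerant pair on arrays 3 and 4, and it lay under the line on all 8 arrays with both probe sets. The difference was -0.13 (SE 0.16, limma adjusted p = 0.863), and the groups overlapped. No level can be given for Hspe1 beyond that bound.

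Hspb1 encodes Hsp27, a small heat shock protein that holds unfolded clients without ATP. Probe set 10408928 stood at 1.07 and 0.84 in the rejecting pair and at 1.15 and 1.11 in the tolerant pair on arrays 3 and 4, with 3 of the 4 values above the line. The tolerant samples were both higher, and the difference of 0.18 had a standard error of 0.12 (limma adjusted p = 0.785). Probe set 10526410 tracked it with a correlation of 0.991 over the 8 arrays and gave 0.19, but lay under the line on all 8. Probe set 10404872, also under the line throughout, gave -0.11 and correlated with the first by -0.20. The values of the first probe set on the arrays numbered 1 and 2 lay between 0.68 and 1.15, all under their lines.

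**Figure D3:**
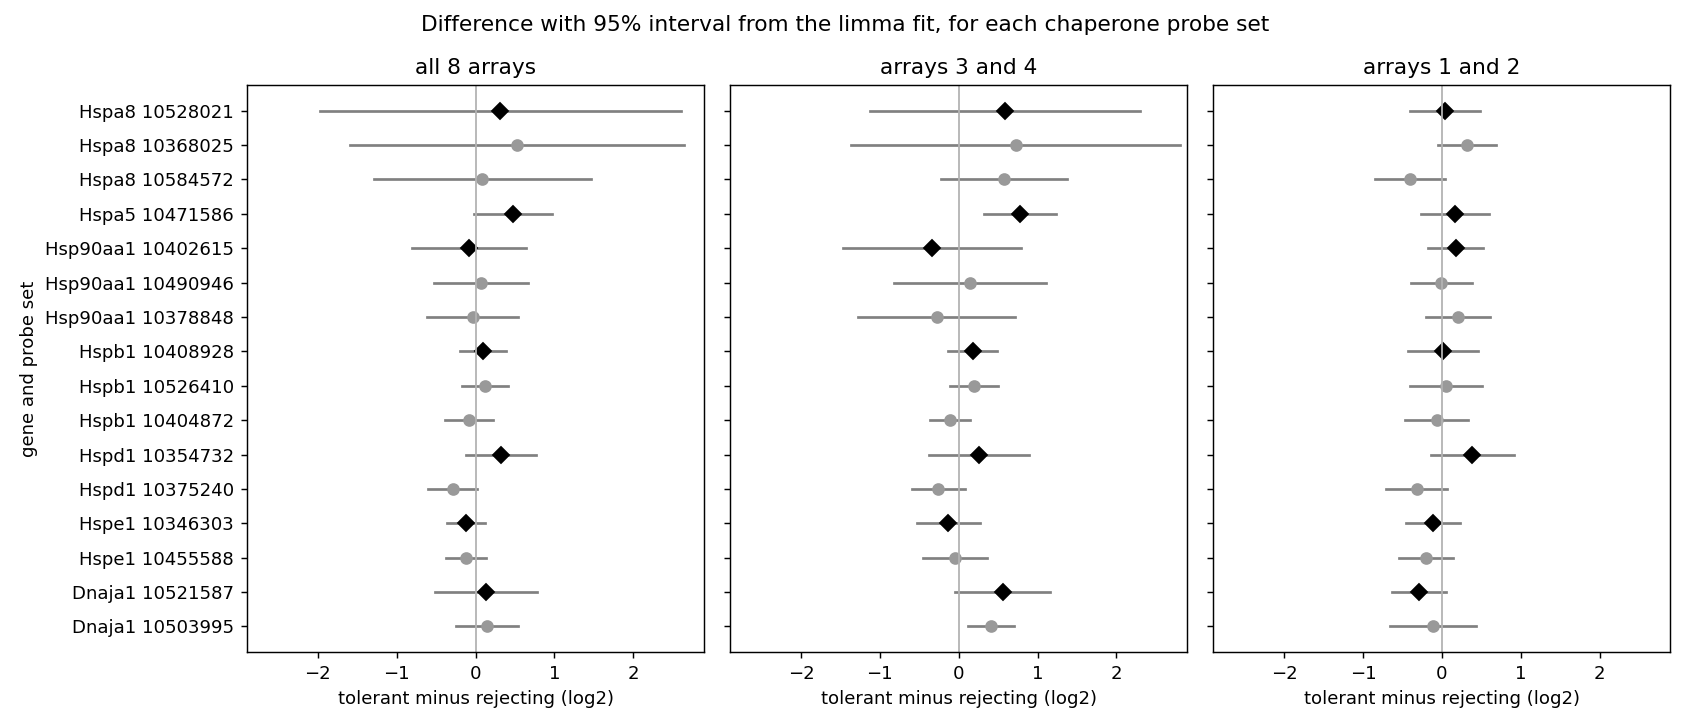
Tolerant minus rejecting difference in log2 RMA value (horizontal axes) with its 95% interval from the limma fit, for the 16 chaperone probe sets (vertical axis), over all 8 arrays, arrays 3 and 4, and arrays 1 and 2. Black diamonds are the probe set with the highest mean of each gene and grey circles the others. On arrays 3 and 4 the intervals of Hspa5 (0.32 to 1.24) and of Dnaja1 10503995 (0.12 to 0.70) lie above 0, before any adjustment for multiple tests.

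Counted together on arrays 3 and 4, 0 of the 16 chaperone probe sets passed (lowest limma adjusted p = 0.407), where 0.0518% of all probe sets did, 11 of 21218, with 0.0471% higher and 0.00471% lower. Without rejecting array 4, a lone rejecting sample was left, and calls rose over all probe sets as well as for Hspa8. No count is given for that fit. At an unadjusted p under 0.05 there were 2 of 16, or 12.5%, against 7.21% of all probe sets. Tolerant samples were higher without overlap in 6 of 16, or 37.5%, against 19.3% of all, and lower without overlap in 2, or 12.5%, against 20.0%. By gene, 3 of the 7 did not overlap with tolerant samples higher, namely Hspa5, Hspb1 and Dnaja1. The median difference over the 7 genes was 0.26. It was 0.04 over the 1227 genes above background on all 4 arrays and -0.01 over all genes.

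On arrays 1 and 2, 0 of 16 probe sets passed, and 0 had an unadjusted p under 0.05, against 0 and 5.15% of all probe sets. Tolerant samples were higher without overlap in 2 and lower in 5 of the 16, that is 12.5% and 31.2%, against 17.2% and 17.1% of all. Every member lay under the line on these arrays, so a difference between the groups was not detectable there. The difference between the sets of arrays passed for 0 of 16 probe sets (lowest limma adjusted p = 0.644), against 0.0566% of all probe sets (0.0471% higher and 0.00943% lower), and 2 of 16 had an unadjusted p under 0.05, against 7.13% of all. Without rejecting array 4, the Hspa8 difference between the sets was 1.66 for probe set 10528021, 1.77 for 10368025 and 1.48 for 10584572. That fit leaves a lone rejecting sample in its set of arrays, so only the sizes are given.

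The summed levels of markers of other cell types were higher on tolerant than on rejecting arrays 3 and 4, where 2 of 8 kidney tubule, 1 of 8 fibroblast and matrix, 0 of 8 macrophage and 0 of 8 endothelial markers passed the test. The 8 kidney tubule markers summed, as unlogged values, to between 14.8 and 15.4 on the rejecting arrays and between 55.6 and 133 on the tolerant ones, with 1 of the 8 above background on all 4 arrays and 2 of the 8, Kap and Lrp2, on 0. Umod, named after its values were seen, was that 1 gene, with log2 values of 1.76 and 2.06 in the rejecting pair and 6.61 and 4.59 in the tolerant pair. The 8 fibroblast and matrix markers summed to 28.2 to 35.6 and 88.0 to 109, with 5 of the 8 above background on all 4 arrays. The 8 macrophage markers summed to 11.9 to 19.3 and 34.3 to 39.4, with 7 of 8 above background on at least 1 array, and the 8 endothelial markers to 11.6 to 13.4 and 14.3 to 16.1, with 5 of 8 above background on 0 arrays. The 6 measured T cell markers summed to 12.2 to 14.6 and 16.6 to 27.0, with 0 of 6 passing. The chaperones are expressed in all of these cell types, and the part of these markers in the chaperone differences was not tested. In such mixed RNA, fewer cells of a type and less RNA per cell cannot be told apart. Between the rejecting arrays, array 4, the higher for Hspa8, also had the higher T cell sum, 14.6 against 12.2, with Cd3e at 2.36 against 1.51, and a slightly higher kidney sum. Its macrophage, fibroblast and endothelial sums were the lower ones. Whether the T cell share of the RNA bears on the Hspa8 gap was not tested.

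The rest of the chaperone network was read from 9 lists. By the test over all genes, 0 members passed in either direction in each list, over all 8 arrays, on arrays 3 and 4 and on arrays 1 and 2. Over all probe sets 0%, 0.0518% and 0% passed, so counts of 0 in lists of this size are what the general share gives. On all 8 arrays, 13 of 17 measured members of the Hsp70 list and 29 of 39 J-domain genes lay at background, near the 74.4% of all genes, and 7 of 16 in the endoplasmic reticulum list did.

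The endoplasmic reticulum chaperones had the highest list median on arrays 3 and 4, 0.25 over 16 measured genes, with 10 above 0. The median was 0.04 over the 1227 genes above background on all 4 arrays and -0.01 over all genes. Of these 16, 7 were higher and 4 lower in tolerant samples without overlap, against 19.3% and 20.0% of all probe sets. The count of lower genes was near the general share. That of higher genes was above it, in a list singled out for its median, and was not tested. It was not particular to this list. Without overlap, 10 of 17 genes were higher and 1 lower in the Hsp70 list. Among regulators of the unfolded protein response, 6 of 11 were higher and 0 lower. The J-domain list had 9 higher and 8 lower of 39, and the TRiC and prefoldin list 2 and 0 of 14. Calr (calreticulin), a lectin chaperone that retains unfolded glycoproteins, stood at 1.08 and 1.29 in the rejecting pair and at 2.18 and 1.81 in the tolerant pair, above background on all 4. The difference was 0.81 (SE 0.16, unadjusted p of 0.00331, limma adjusted p = 0.313). Its membrane-bound relative Canx (calnexin) read 0.70 and 1.95 against 2.31 and 1.83, so the groups overlapped, and rejecting array 3 was again the low one. Hsp90b1, the Hsp90 of the same compartment, read 0.64 and 0.59 against 0.96 and 1.08, a difference of 0.40 (limma adjusted p = 0.504). Dnajc3, a cochaperone of BiP, also counted in the J-domain list, had a difference of 0.33.

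Regulators of the unfolded protein response had a median of 0.09 over 11 genes, with 9 above 0. Xbp1, the transcription factor made by splicing under such stress, read 1.42 and 1.54 against 1.55 and 1.58, and Atf4 1.10 and 0.77 against 0.93 and 1.06. These differences of 0.09 and 0.06 were within their standard errors of 0.11 and 0.15. Syvn1 and Herpud1, of the pathway that removes misfolded proteins from the endoplasmic reticulum, had differences of 0.31 and 0.44 (limma adjusted p = 0.613 and 0.703).

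Among cytosolic partners, the Hsp90 list had a median of 0.06 over 17 genes, with 12 above 0. Ppp5c, a phosphatase that binds Hsp90, read 0.78 and 0.81 against 1.42 and 1.39, a difference of 0.61 (SE 0.10, unadjusted p of 0.00135, limma adjusted p = 0.224). Fkbp8, above background on all 4 arrays, had a difference of 0.07, and Unc45b of 0.07. The Hsp70 list had a median of 0.13 over 17 genes, with 14 above 0. Its exchange factors Bag3, Bag4 and Bag6 had differences of 0.29, 0.38 and 0.13, and Hspa12b 0.18, and only Bag6 lay above background on all 4 arrays.

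The J-domain list had a median of -0.01 over 39 genes, with 19 above 0. In it, Dnajc30, a mitochondrial protein, read 1.56 and 1.34 against 2.51 and 2.10, above background on all 4. The difference was 0.86 (SE 0.17, unadjusted p of 0.00339, limma adjusted p = 0.313). On arrays 1 and 2 its order was turned, with 1.64 and 1.35 in the rejecting pair, both above the line. The tolerant pair there read 1.06 and 1.01, both under it. Over all 8 arrays the Dnajc30 difference was 0.20. On arrays 3 and 4 Dnaja4 read 1.19 and 1.39 against 1.79 and 1.11, so the groups overlapped. The TRiC and prefoldin list, the chaperonin of actin and tubulin and the complex that feeds it, had a median of -0.03 over 14 genes, with 6 above 0. Pfdn5, Pfdn2 and Cct8 there had differences of 0.23, 0.06 and -0.26.

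The small heat shock list had a median of 0.15 over 7 genes, with 6 above 0. Hspb9, Hspb6 and Cryaa had differences of 0.35, 0.25 and 0.15. The mitochondrial list had a median of 0.09 over 12 genes, with 8 above 0, and 10 of the 12 lay at background on all 8 arrays. Clpb, which takes aggregates apart, had a difference of 0.34, Trap1 of -0.28, Dnajc19 of 0.35 and Dnaja3 of -0.06. The heat shock factor list had a median of 0.04 over 6 genes, with 4 above 0, and 5 of the 6 lay under the line on all 8 arrays. Hsf4 and Hsf2bp there had differences of -0.27 and -0.03. Hsbp1, a small protein that binds heat shock factor 1, was the exception in level. It read 0.67 and 1.22 against 1.70 and 1.42, a difference of 0.62 (limma adjusted p = 0.613).

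**Figure D4:**
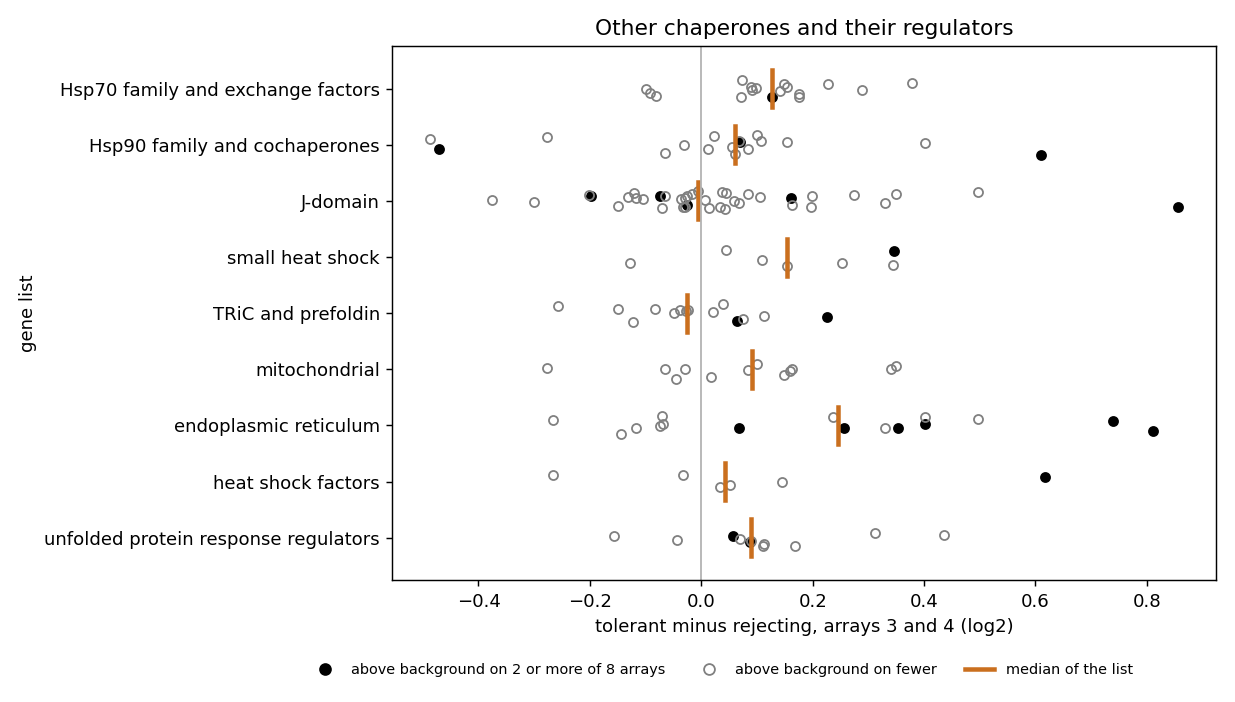
Tolerant minus rejecting difference in log2 RMA value on arrays 3 and 4 (horizontal axis) for the genes of 9 chaperone lists (vertical axis). Each circle is a gene, filled where it lay above background on 2 or more of the 8 arrays, and the thick line is the median of the list; genes in 2 lists appear in both, and heights within a row are spread only for legibility. The medians lie between -0.03 and 0.25.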

How the data were processed

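The deposited table holds log2 values, 35556 probe sets by 8 arrays, that the authors computed by RMA in the Affymetrix Expression Console software (submitters' processing notes). Its version and the genome build were not given in the sources used here. Base 2 was taken from the range of the values. Symbols from the platform annotation were updated through Entrez identifiers to GRCm38.p6. Probe sets with several symbols (1881) or none listed (12457) were not used. A gene with several probe sets is represented by that with the highest mean over the 8 arrays, and the others are given too.

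The test was limma 3.58.1 in R 4.3.3, lmFit and eBayes without trend, 2-sided, with Benjamini-Hochberg adjustment over 21218 probe sets and a threshold of 0.05. The script was tested on simulated data. Array number limits the precision. Same-numbered arrays deviated together from their group means (r of 0.499, 0.507, 0.410 and 0.599). The 2 levels of signal enter these values, and arrays with different numbers were not compared. A pairing by number is therefore not shown, and the labels give none.

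Named genes were all members, and in each other list the 2 with the smallest unadjusted p on arrays 3 and 4, the 2 with the highest mean, and the 5 genes most correlated with Hspa8. Members and lists were chosen with earlier results of these data known. Alternatives were each array left out, other normalizations, filters, moderation, weights and blocks. Plots were drawn with matplotlib 3.10.9 in Python 3.11.15.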

Additional observations from a re-analysis of the deposited data

Results flagged for a closer look

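In 3 of 32 checks, 1 array lay far from the other 3 of its group. The rule flags about 1 in 20 independent groups of samples from 1 level. Here the arrays fall into 2 levels of signal, and 2 of the 3 flags are Hsp90aa1 probe sets that correlated by 0.935. No excess over chance is read from the count. For Hsp90aa1, rejecting array 4 stood above the other rejecting arrays in probe set 10402615, with a gap of 0.935 of the group's whole range, and in probe set 10378848, with a gap of 0.892. For Hspb1 probe set 10408928, tolerant array 1 stood below the other tolerant arrays, with a gap of 0.912 of the range.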

How the results depend on the processing

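The count of chaperone probe sets passing stayed at 0 over all 8 arrays under 18 alternatives and on arrays 1 and 2 under 11. On arrays 3 and 4 and for the difference between sets, the count did not stay at 0 when single arrays were left out. It rose without rejecting replicate 4. That fit leaves a lone rejecting sample in the set, so only the sizes of its differences are given. With the replicate number as a block, 0 chaperone probe sets passed in each of the 4 comparisons, so this block changed no call. The filter on dim probe sets left no member on arrays 1 and 2. Signs turned for some differences, and the cause was not tested. With all probe sets of a gene averaged, Hspd1 on arrays 3 and 4 went to -0.00080 and Hspa8 on arrays 1 and 2 to -0.016. The Hspe1 difference between sets went to 0.040 (quantile), 0.0082 (median centring), 0.023 (cyclic loess) and 0.068 (mean of probe sets). Leaving out single arrays turned the sign for these ranges. Over all 8 arrays they were -0.22 to 1.11 for Hspa8, -0.22 to 0.30 for Hsp90aa1 and -0.087 to 0.33 for Dnaja1. On arrays 3 and 4 they were -0.53 to 1.70 for Hspa8, -1.05 to 0.39 for Hsp90aa1, -0.064 to 0.58 for Hspd1 and -0.33 to 0.067 for Hspe1. On arrays 1 and 2 they were -0.21 to 0.28 for Hspa8, -0.058 to 0.40 for Hspa5 and -0.22 to 0.26 for Hspb1. For the difference between sets they were -0.57 to 1.66 for Hspa8, -1.23 to 0.21 for Hsp90aa1, -0.081 to 0.40 for Hspb1, -0.48 to 0.22 for Hspd1 and -0.21 to 0.18 for Hspe1. The highest Hspa8 value on arrays 3 and 4, 1.70, came without rejecting replicate 4. Signal near background limits every member, Hspa8 on arrays 1 and 2 and in the comparisons that use them.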
